A study of Mus musculus with 18 samples.

Results

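Transcripts of the oxidative phosphorylation subunits were compared between iWAT adipocytes, eWAT adipocytes and BAT. The members were all transcript rows with an Entrez gene ID whose symbol starts with the letters of a nuclear subunit gene family, together with every row of the mitochondrial chromosome. The nuclear families were Ndufa, Ndufb, Ndufc, Ndufs and Ndufv with a digit (complex I), Sdha to Sdhd (complex II), Uqcr and Cyc1 (complex III), Cycs (cytochrome c), Cox4 to Cox8 (complex IV) and Atp5 (complex V). Where a symbol had several rows, the one with the highest RPKM on average was kept. This gave 99 members of 52094 features, of which 87 are nuclear and 12 lie on the mitochondrial genome. The nuclear members hold 35 genes of complex I, 4 of complex II, 9 of complex III, 1 of cytochrome c, 20 of complex IV (including Ndufa4 and its paralog Ndufa4l2) and 15 of complex V. Another 3 (Cox4nb, Atp5s and Atp5sl) share the letters of the families but encode no subunit.

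The samples were 18 RNA-seq libraries from wild-type male C57BL/6 mice fed a HFD for 12 weeks, 6 libraries per tissue. White samples were mature adipocytes freed from iWAT and eWAT with collagenase and collected as the floating layer (iWAT and eWAT in what follows), whereas BAT was frozen and extracted as whole tissue. A treatment field in the labels names regular chow for all samples, against their titles, and the samples were taken as HFD samples. By the numbers in the titles, iWAT and eWAT samples were both taken from mice 1, 2, 3, 4, 5 and 16, and BAT came from mice 1, 2, 5, 16, 17 and 18. The BAT libraries were run in lanes 3 and 4, apart from the iWAT and eWAT libraries in lanes 1 and 2, so that lane, dissociation and tissue cannot be told apart in the comparisons with BAT. Counts added over transcript rows came to 24655056 to 42518483 per library, where reads on overlapping rows count more than once. The library totals behind the deposited RPKM values ran from 22935346 to 41145280 reads. Levels are given as RPKM (reads scaled to row length and to the reads of the library), and differences as log2 fold changes with SE from edgeR, which were fitted on the read counts and scaled by TMM. A member was called when its p, adjusted over all features tested, was under 0.05. In whole tissue, fewer cells of a type and less RNA per cell cannot be told apart.

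Oxidative phosphorylation passes electrons from NADH and succinate through complexes I to IV to oxygen and pumps protons across the inner mitochondrial membrane, and complex V uses the proton gradient to make ATP. Most subunits are encoded in the nucleus, while the mitochondrial genome encodes core subunits of complexes I, III, IV and V and the RNAs of its own ribosome, and holds no gene of complex II. Brown adipocytes are rich in mitochondria and let protons return through the uncoupling protein Ucp1, which releases heat, and their complex V content is known to be low for their respiratory capacity.

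Nearly every member was more abundant in BAT. Of 97 members tested in each comparison, 94 were called against iWAT, where 75.3% of all features were, and 96 against eWAT, where 82.5% of all features were. Against iWAT, 92 of 97 members were higher in BAT, where 37.2% of all features were, and 2 were higher in iWAT (Atp5g1 and Atp5g3), where 38.1% of all features were. Against eWAT, 95 of 97 were higher in BAT, where 41.4% of all features were, and 1 was higher in eWAT (Atp5g1), where 41.1% of all features were. The median log2 fold change of the members was 2.35 for BAT over iWAT and 2.76 for BAT over eWAT, beside a median of -0.01 and 0.02 over all features. A difference of at least 2-fold was called for 90 and 92 members in the direction of BAT (19.1% and 25.2% of all features). The members counted as higher in BAT include Cox6b2, which had enough reads to be tested only through the BAT samples. Cox7b2 and Cox8c, known as testis forms, had no read in any sample and could not be tested.

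The highest median changes were found in complex III and cytochrome c, and the lowest in complex V. For BAT over iWAT the medians were 2.26 in complex I, 2.59 in complex II, 2.79 in complex III, 2.27 in complex IV and 1.89 in complex V. For BAT over eWAT they were 2.76, 3.07, 3.20, 2.51 and 2.22 in the same order. All members of complexes I, II and III were called higher in BAT in both comparisons, and the exceptions lie in complexes IV and V. The groups' RPKM values did not overlap for 77 of 85 nuclear members between iWAT and BAT, and for 78 of 85 between eWAT and BAT. Over all features, 13.5% and 19.2% lay above the white depot without overlap in BAT, and 51.8% and 49.2% lay below it. RPKM and the fitted folds are on different scales. With no scaling beyond the total count, the median of all features was 0.87 higher in iWAT and 0.89 higher in eWAT than in BAT. The share of all called features that were higher in the white depot then moved from 50.6% to 81.8% against iWAT and from 49.8% to 76.1% against eWAT. Relative to that median, the members stood 2.36 higher in BAT than in iWAT under both scalings. Against eWAT they stood 2.75 higher with TMM and 2.74 higher without it. The total count is a sum over rows, in which reads on overlapping rows count more than once, so the unscaled setting is not the RPKM scale. In every BAT library it exceeded the total behind RPKM (27196108 against 22935346 in mouse 16), and in every white library it lay below. The part of this in calls lost or turned under that setting was not tested.

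**Figure D1:**
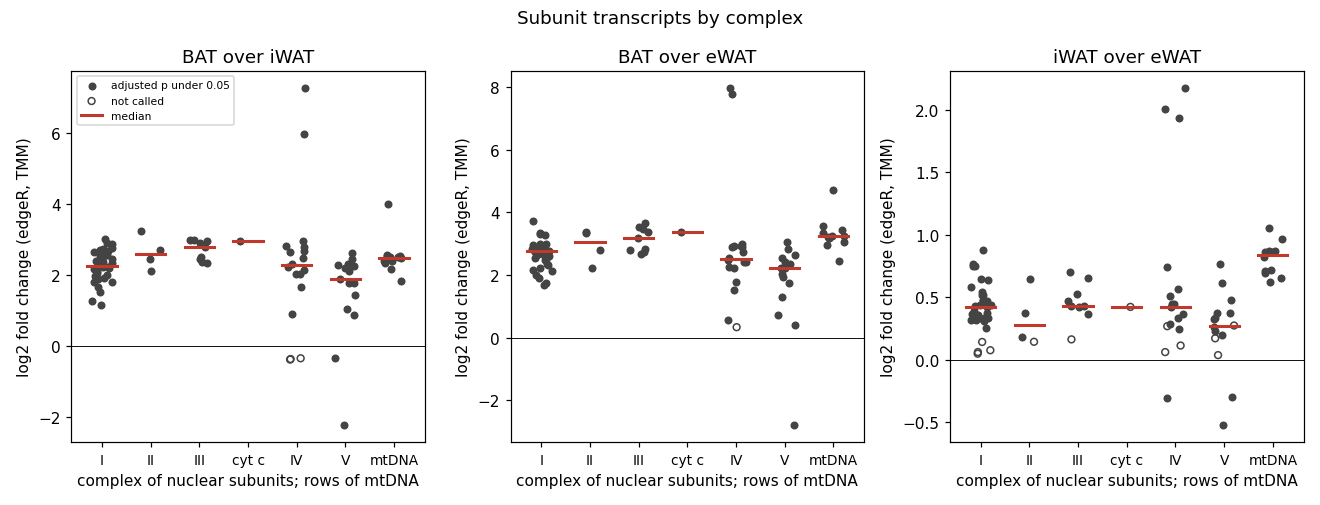
Log2 fold changes from edgeR with TMM scaling (y axis, a separate scale in each panel) of the members by complex (x axis) for BAT over iWAT, BAT over eWAT and iWAT over eWAT, with 6 mice per tissue. Each point is 1 member, filled where its adjusted p was under 0.05, and red lines are medians, such as 2.79 for complex III and 1.89 for complex V in BAT over iWAT. The low points of complex V are Atp5g1 (-2.24 and -2.79 in the comparisons with BAT), and Cox7a2l, Atp5g2 and Atp5g3 in BAT over eWAT change direction with no scaling beyond the total count.

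Complex I takes electrons from NADH. Its most abundant nuclear member, the accessory subunit gene Ndufb9, lay at 62.4 to 91.2 RPKM in iWAT (median 83.9), 35.9 to 59.96 in eWAT (median 49.3) and 186 to 322 in BAT (median 257). These ranges did not overlap. The log2 fold change of Ndufb9 was 2.23 ± 0.13 for BAT over iWAT (adjusted p = 3.37e-10), 2.95 ± 0.14 for BAT over eWAT (2.94e-11) and 0.75 ± 0.14 for iWAT over eWAT (0.000305). The largest change in the complex was that of Ndufv1, which encodes the subunit that binds NADH and FMN, at 28.8 to 39.4 RPKM in iWAT (median 37.5), 18.4 to 24.7 in eWAT (median 21.8) and 157 to 223 in BAT (median 195). Here too every BAT sample lay above every white sample, and every iWAT sample above every eWAT sample. Ndufv1 was higher in BAT by 3.01 ± 0.11 over iWAT (adjusted p = 2.45e-12) and by 3.74 ± 0.11 over eWAT (2.04e-13). The smallest change in the complex between BAT and iWAT was that of Ndufb3, 1.15 ± 0.12 (adjusted p = 3.66e-07), with 41.9 to 60.5 RPKM in iWAT, 17.8 to 38.1 in eWAT and 58.1 to 95.7 in BAT. Its iWAT and BAT values overlapped in RPKM. Ndufb3 also had the largest difference of complex I between the white depots, 0.88 ± 0.18 (adjusted p = 0.000673), and that difference had no overlap.

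Complex II, succinate dehydrogenase, is the complex with no mitochondrially encoded subunit. Its iron-sulfur subunit gene Sdhb had the largest change, at 11.2 to 13.9 RPKM in iWAT (median 13.5), 11.1 to 12.5 in eWAT (median 11.5) and 71.6 to 87.9 in BAT (median 83.4). The white depots overlapped and BAT stood apart. Sdhb was higher in BAT by 3.24 ± 0.09 over iWAT (adjusted p = 2.98e-13) and by 3.39 ± 0.08 over eWAT (6.13e-14). Between the white depots its difference was 0.18 ± 0.07 (adjusted p = 0.0378), a call that was lost with the mouse as a block (0.17, adjusted p = 0.0545) and without iWAT mouse 2, 3, 4 or 16 or eWAT mouse 1, 3, 5 or 16. The flavoprotein gene Sdha ranged over 28.6 to 37.9 RPKM in iWAT, 18.5 to 24.7 in eWAT and 116 to 171 in BAT. It differed by 0.64 ± 0.10 between the white depots (adjusted p = 0.000111), with no overlap. Sdhd, which encodes a membrane anchor, was the most abundant gene of the complex, with medians of 72.1, 55.4 and 263 RPKM in iWAT, eWAT and BAT.

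Complex III hands electrons to cytochrome c. Its most abundant gene in iWAT and BAT was Uqcrfs1, the Rieske iron-sulfur subunit, with medians of 90.5 RPKM in iWAT (70.8 to 99.4), 56.3 in eWAT (47.9 to 65.5) and 453 in BAT (352 to 482). The 3 tissues did not overlap. The largest change was that of Cyc1, which encodes cytochrome c1, at 38.9 to 53.1 RPKM in iWAT, 25.7 to 35.5 in eWAT and 205 to 283 in BAT. Cyc1 was higher in BAT by 2.98 ± 0.11 over iWAT (adjusted p = 2.89e-12) and by 3.66 ± 0.11 over eWAT (2.5e-13). The core genes Uqcrc1 and Uqcrc2 changed by nearly as much, 2.98 ± 0.10 and 2.97 ± 0.10 over iWAT. The small subunit gene Uqcrq had medians of 30.3, 21.5 and 138 RPKM and was higher in BAT by 2.79 ± 0.15 and 3.20 ± 0.16 (adjusted p = 1.4e-10 and 3.73e-11).

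Cytochrome c, the mobile carrier between complexes III and IV, is encoded by Cycs, whose own row held few reads. It lay at 0.836 to 1.13 RPKM in iWAT (median 0.977), 0.495 to 1.04 in eWAT (median 0.695) and 4.32 to 5.62 in BAT (median 5.00). The BAT samples stood apart and the white depots overlapped. Cycs was higher in BAT by 2.97 ± 0.11 over iWAT (adjusted p = 2.93e-12) and by 3.37 ± 0.17 over eWAT (6.9e-11), and by 0.42 ± 0.19 in iWAT over eWAT without passing the test (0.0631). Of the reads on Cycs and its 5 near-identical intronless copies, about 97.5%, 97.2% and 96.9% were counted on the copies in iWAT, eWAT and BAT. With the copies summed, the log2 fold changes were 2.68 and 3.23 for BAT over iWAT and eWAT, and 0.58 for iWAT over eWAT (adjusted p = 0.00208), which then passed the test.

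Such copies concern 21 nuclear members. A copy was defined as a genomic match of at least 95% identity over at least 80% of the coding sequence without its introns, and 45 were found. For 20 of the genes, at least 1 copy has a row of its own. The deposited rows for Cox7c (chr11:75413151-75413547) and Atp5g1 (chr11:100222932-100223466) are rows of such a copy, not of the gene's own locus, and this is also so for Atp5l. Apart from copies, only 2.43% of the span of the Ndufb2 row, counted in complex I, lies within the annotated gene. That row overlaps rows of Adck2 and LOC100503140, so its call may not be that of Ndufb2. The coding sequence of Cox7c, a small complex IV subunit, is shown because it matches the copy on chromosome 11 at 100% while its own locus on chromosome 13 (chr13:86184421-86186509, minus strand, mm9) has 1 junction inside it. Capitals mark the 6 bases on either side of the junction. The copy holds the same letters without an intron, so that a read within the coding sequence matches both equally.

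Cox7c: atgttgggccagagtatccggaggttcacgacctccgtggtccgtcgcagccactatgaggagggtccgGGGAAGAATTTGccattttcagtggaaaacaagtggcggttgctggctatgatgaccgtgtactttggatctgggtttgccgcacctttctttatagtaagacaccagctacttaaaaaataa

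Cox7c lay at 179 to 216 RPKM on the copy in iWAT, 150 to 189 in eWAT and 402 to 626 in BAT, and the mean RPKM of the row at its own locus was 4.31, 4.37 and 12.4. Both rows were thus highest in BAT. With the copies summed for every gene, 92 members were higher in BAT than in iWAT and 95 higher than in eWAT, the same numbers as on single rows. The median log2 fold change of the 63 subunit genes without such a copy was 2.38 and 2.76 for BAT over iWAT and eWAT, beside 2.22 and 2.55 for the 21 with one.

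Complex IV, cytochrome c oxidase, has subunits with tissue-specific isoforms, and these carried the largest differences of all members. Cox7a1 and Cox8b are the forms known from heart, skeletal muscle and brown fat, and Cox7a2 and Cox8a are the widely expressed forms. Their coding sequences in mm9 are shown because the reads of the 2 forms of a pair are told apart by sequence: Cox7a1 (chr7:30969190-30971047, plus strand) and Cox7a2 (chr9:79603048-79607660, minus strand) agree at 58.6% of aligned columns, and Cox8b (chr7:148084842-148086345, minus strand) and Cox8a (chr19:7289648-7292106, minus strand) at 52.7%. Capitals mark the longest run of bases shared by the pair, 12 bases for Cox7a1 and Cox7a2 and 10 bases for Cox8b and Cox8a.

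Cox7a1: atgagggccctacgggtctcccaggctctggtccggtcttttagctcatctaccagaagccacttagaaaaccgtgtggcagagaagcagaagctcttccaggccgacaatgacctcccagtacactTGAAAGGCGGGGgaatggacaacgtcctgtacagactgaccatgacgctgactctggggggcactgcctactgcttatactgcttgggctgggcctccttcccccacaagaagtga
Cox7a2: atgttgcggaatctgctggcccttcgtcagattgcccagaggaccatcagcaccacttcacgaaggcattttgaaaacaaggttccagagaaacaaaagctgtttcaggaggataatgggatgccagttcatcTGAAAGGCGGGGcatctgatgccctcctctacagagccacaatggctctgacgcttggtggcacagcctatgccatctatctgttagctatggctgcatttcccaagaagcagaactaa
Cox8b: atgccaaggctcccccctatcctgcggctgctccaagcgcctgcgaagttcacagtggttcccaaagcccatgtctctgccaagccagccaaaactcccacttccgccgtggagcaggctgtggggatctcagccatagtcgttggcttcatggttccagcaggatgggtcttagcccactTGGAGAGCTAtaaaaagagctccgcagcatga
Cox8a: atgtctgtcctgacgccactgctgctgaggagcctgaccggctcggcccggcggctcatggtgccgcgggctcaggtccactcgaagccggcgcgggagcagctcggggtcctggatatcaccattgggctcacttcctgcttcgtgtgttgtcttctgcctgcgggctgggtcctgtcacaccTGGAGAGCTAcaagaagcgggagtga

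Cox7a1 lay at 2.68 to 5.10 RPKM in iWAT (median 3.11), 1.93 to 2.82 in eWAT (median 2.53) and 239 to 437 in BAT (median 379). The BAT samples stood far above every white sample. Its log2 fold change was 7.29 ± 0.20 for BAT over iWAT (adjusted p = 2.27e-13) and 7.77 ± 0.17 for BAT over eWAT (3.19e-14). Between the white depots its values overlapped, and the difference of 0.51 ± 0.19 (adjusted p = 0.0297) did not pass with the mouse as a block (0.49, adjusted p = 0.0565) or with lane as a covariate (0.50, adjusted p = 0.0516), nor without iWAT mouse 2 or 3 or eWAT mouse 3 or 16. Cox7a2 lay at 45.8 to 54.9 RPKM in iWAT, 36.3 to 44.5 in eWAT and 112 to 172 in BAT, with log2 fold changes of 2.04 ± 0.10 and 2.43 ± 0.10 for BAT over the white depots (adjusted p = 6.88e-11 and 6.47e-12). The share of Cox7a1 in the summed RPKM of Cox7a1 and Cox7a2 was therefore 6.21 ± 1.44% in iWAT, 5.86 ± 0.546% in eWAT and 71.5 ± 3.33% in BAT (mean ± SD, n = 6). Cox7a1 exceeded Cox7a2 in 6 of 6 BAT samples, by 2.02 to 3.01 times, and in 0 of 6 samples of each white depot.

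Cox8b was the most abundant nuclear member in BAT. It lay at 19.8 to 33.1 RPKM in iWAT (median 27.5), 3.15 to 12.3 in eWAT (median 6.02) and 703 to 1415 in BAT (median 1263). The 3 tissues did not overlap. The log2 fold change of Cox8b was 6.00 ± 0.19 for BAT over iWAT (adjusted p = 9.8e-13), 7.98 ± 0.36 for BAT over eWAT (1.76e-11) and 2.01 ± 0.31 for iWAT over eWAT (8.54e-05). Cox8a ranged over 186 to 248, 121 to 193 and 307 to 565 RPKM, so that Cox8b exceeded Cox8a in 6 of 6 BAT samples and in 0 of 6 samples of each white depot. The share of Cox8b in the summed RPKM of the pair was 10.8 ± 1.08% in iWAT, 4.10 ± 1.77% in eWAT and 70.8 ± 1.36% in BAT. Unlike the share of Cox7a1, it differed between the white depots, with no overlap.

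The other paired isoforms made up small shares in every tissue. Cox6a2, the muscle form, lay at 1.51 to 3.33 RPKM in iWAT, 0.919 to 2.02 in eWAT and 0.0428 to 2.45 in BAT, and it was not called in either comparison with BAT (adjusted p = 0.552 and 0.611), whereas with no scaling beyond the total count it was called higher in iWAT than in BAT by 1.27 (adjusted p = 0.0335). Its row overlaps that of Itgad, a gene of macrophages, and counts without strand cannot tell them apart. Its partner Cox6a1 ranged over 152 to 205, 110 to 151 and 376 to 832 RPKM. Cox6a2 made up 1.33 ± 0.384%, 1.08 ± 0.225% and 0.204 ± 0.174% of the summed RPKM of both. Cox4i2, a form known from lung and induced by low oxygen, lay at 1.42 to 5.30 RPKM in iWAT (median 2.49), 0.454 to 1.15 in eWAT (median 0.578) and 1.04 to 2.12 in BAT (median 1.58). Every iWAT sample was above every eWAT sample, and BAT overlapped both. Cox4i2 was higher in iWAT than in eWAT by 2.17 ± 0.35 (adjusted p = 0.000117) and higher in BAT than in eWAT by 1.78 ± 0.25 (9.74e-06), whereas BAT over iWAT gave -0.35 ± 0.28 (0.267), which was called higher in iWAT by 1.21 with no scaling beyond the total count (adjusted p = 0.00154). Its share beside Cox4i1 was 1.27 ± 0.766%, 0.350 ± 0.138% and 0.211 ± 0.0315%.

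Ndufa4l2, a paralog of Ndufa4 that is known to be induced by low oxygen, followed the same order. It lay at 5.27 to 17.8 RPKM in iWAT (median 8.03), 1.82 to 3.85 in eWAT (median 2.41) and 3.57 to 6.36 in BAT (median 5.34). The white depots did not overlap, and BAT overlapped both. Ndufa4l2 was higher in iWAT than in eWAT by 1.94 ± 0.31 (adjusted p = 0.000118), and BAT over iWAT gave -0.37 ± 0.26 (0.203), which was called higher in iWAT by 1.25 with no scaling beyond the total count (adjusted p = 0.000523). Its row overlaps that of Shmt2. It made up 13.8 ± 7.51% of the summed RPKM with Ndufa4 in iWAT, 5.39 ± 1.95% in eWAT and 2.33 ± 0.240% in BAT. Cox6b2, the testis form of Cox6b1, stayed at or below 1.59 RPKM in every sample, against at least 101 RPKM for Cox6b1, and had too few reads to be tested between the white depots. For BAT over iWAT and eWAT it gave 2.78 ± 0.39 and 2.41 ± 0.36 (adjusted p = 9.41e-06 and 1.65e-05).

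The shares of Cox7a1, Cox8b, Cox6a2, Cox4i2, Ndufa4l2 and Atp5g1 within their families were compared by a two-sided exact permutation test of the mean difference, in 18 comparisons. With 6 samples against 6, the smallest p that such a test can give is 0.00216. It was reached in every comparison between BAT and a white depot (exact permutation, adjusted p = 0.003) except Cox4i2 in eWAT against BAT (exact permutation p = 0.00433, adjusted p = 0.00519). Between the white depots the shares of Cox8b and Atp5g1 also reached that p, those of Cox4i2 and Ndufa4l2 differed with exact permutation p = 0.00433 and 0.00866 (adjusted p = 0.00519 and 0.00974), and those of Cox6a2 and Cox7a1 did not differ detectably (exact permutation p = 0.216 and 0.621). The shares use RPKM of the same sample and do not depend on the scaling between libraries.

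**Figure D2:**
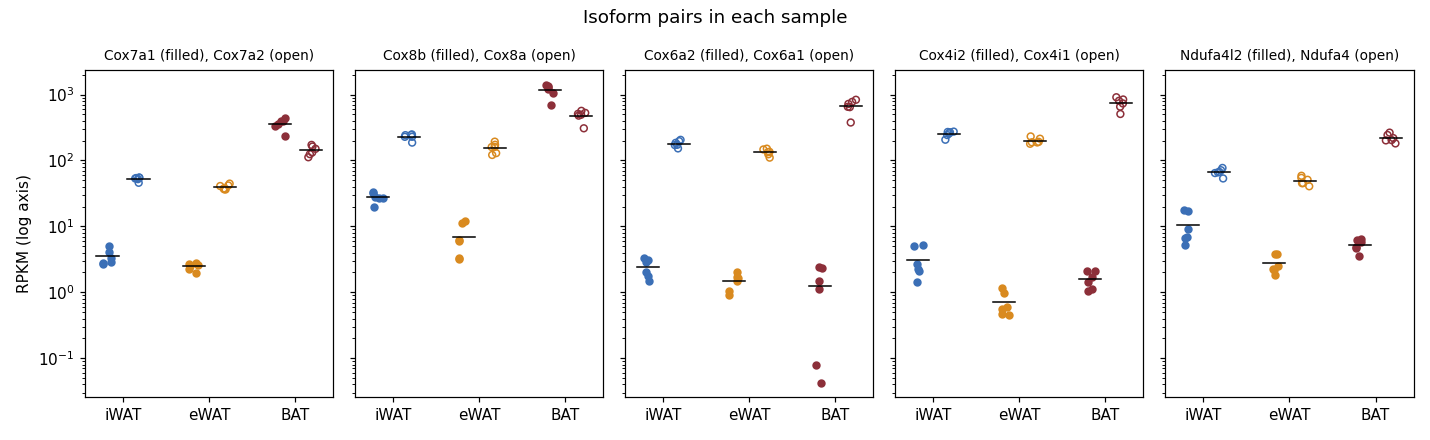
RPKM (y axis, log scale) of the paired isoforms in iWAT, eWAT and BAT (x axis), with the tissue-restricted form filled, the widely expressed form open and a line at the mean of 6 mice. The filled points lie above the open points for Cox7a1 and Cox8b in BAT only, where Cox7a1 spans 239 to 437 RPKM and Cox8b 703 to 1415 RPKM.

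Cox7a2l, which encodes a factor that joins complexes III and IV, went against most of complex IV. It lay at 25.0 to 30.7 RPKM in iWAT (median 29.0), 33.4 to 36.5 in eWAT (median 35.3) and 28.6 to 39.7 in BAT (median 35.1). It was higher in eWAT than in iWAT, by 0.31 ± 0.05 (adjusted p = 0.000235), with no overlap. Against BAT its fitted difference was small, 0.90 ± 0.07 over iWAT and 0.57 ± 0.06 over eWAT, and with no scaling beyond the total count the first was no longer called (0.05, adjusted p = 0.672) and the second turned to 0.34 in favour of eWAT. Of the widely expressed subunits of the complex, Cox4i1 was the most abundant in the white depots, with medians of 263, 190 and 768 RPKM, and Cox5a had the largest change over iWAT, 2.96 ± 0.10 (adjusted p = 2.16e-12). Cox7b, an X-linked subunit gene, had medians of 31.0, 29.0 and 150 RPKM and was higher in BAT by 2.83 ± 0.11 and 2.92 ± 0.10. Cox6a1 and Cox6b1 were higher in BAT by 2.49 ± 0.16 and 2.22 ± 0.12 over iWAT.

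Complex V, the ATP synthase, held the members that were lowest in BAT. Its beta subunit gene Atp5b, which carries the catalytic sites, lay at 180 to 241 RPKM in iWAT (median 224), 122 to 164 in eWAT (median 145) and 622 to 883 in BAT (median 830). It did not overlap between tissues and was higher in BAT by 2.46 ± 0.11 over iWAT (adjusted p = 3.17e-11) and by 3.05 ± 0.12 over eWAT (3.42e-12). Atp5j2, the f subunit gene, had the largest change of the complex over iWAT, 2.63 ± 0.13 (adjusted p = 5.35e-11), with medians of 12.5, 10.2 and 52.0 RPKM.

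The c subunit forms the rotating ring of the membrane part and is made from 3 genes, Atp5g1, Atp5g2 and Atp5g3, which encode the same mature protein. Atp5g1 lay at 15.5 to 18.3 RPKM in iWAT (median 17.5), 22.8 to 27.0 in eWAT (median 24.8) and 2.23 to 2.72 in BAT (median 2.29). No tissue overlapped another, and BAT was the lowest. Atp5g1 was higher than in BAT by 2.24 ± 0.10 in iWAT (adjusted p = 2.93e-11) and by 2.79 ± 0.10 in eWAT (1.49e-12), and higher in eWAT than in iWAT by 0.52 ± 0.07 (3.22e-05). These reads lie on the intronless copy, which matches the coding sequence at 99.8%. The row at the gene's own locus had a mean of 2.60, 3.72 and 0.454 RPKM in iWAT, eWAT and BAT, the same order, and the 2 rows summed gave 2.04 and 2.58 for the white depots over BAT.

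Atp5g2 lay at 52.5 to 65.3 RPKM in iWAT, 64.2 to 79.97 in eWAT and 62.1 to 105 in BAT. Its values in BAT overlapped those of both white depots, and its fitted log2 fold change was 1.05 ± 0.10 for BAT over iWAT (adjusted p = 1.35e-07) and 0.73 ± 0.10 for BAT over eWAT (7.58e-06), of which, with no scaling beyond the total count, the first was no longer called (0.20, adjusted p = 0.142) and the second turned to 0.18 in favour of eWAT. Atp5g3 lay at 74.7 to 101 RPKM in iWAT, 46.1 to 64.6 in eWAT and 41.7 to 58.8 in BAT. It was higher in iWAT than in BAT by 0.34 ± 0.10 (adjusted p = 0.00496), a call lost with the mouse as a block (0.30, adjusted p = 0.0916). It was higher in BAT than in eWAT by 0.40 ± 0.10 (adjusted p = 0.00118), and with no scaling beyond the total count this turned to 0.51 in favour of eWAT. Atp5g3 was higher in iWAT than in eWAT by 0.77 ± 0.11 (4.34e-05), the largest such difference in complex V.

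Set beside the beta subunit gene, the c subunit genes were thus low in BAT. The summed RPKM of the 3 genes was 170 ± 11.6 in iWAT, 154 ± 6.17 in eWAT and 132 ± 19.9 in BAT (mean ± SD, n = 6). Divided by the RPKM of Atp5b in the same sample, it was 0.690 to 0.827 in iWAT, 0.926 to 1.19 in eWAT and 0.143 to 0.184 in BAT. The ranges of this ratio did not overlap. The ratio was chosen after the values were seen and was not tested. The other complex V genes that changed least were Atp5j (coupling factor 6), higher in BAT by 0.86 ± 0.07 over iWAT, and Atp5c1 (the gamma subunit), by 1.44 ± 0.09. The row of Atp5j overlaps that of Gabpa, and the row of Atp5c1 that of Kin, and counts without strand cannot tell them apart. Of the 87 nuclear member rows, 44 overlap a row of another symbol.

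**Figure D3:**
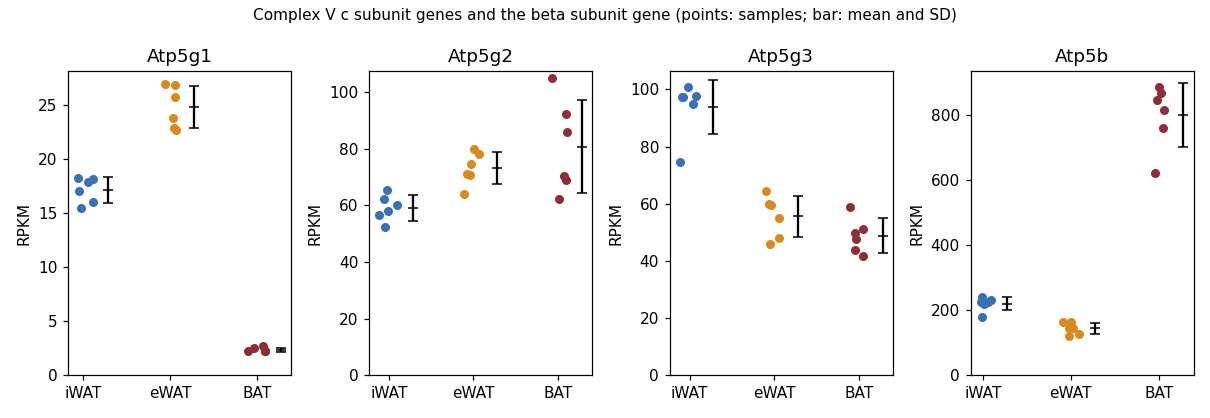
RPKM (y axis, linear, from 0, a separate scale in each panel) of the c subunit genes Atp5g1, Atp5g2 and Atp5g3 and of the beta subunit gene Atp5b in iWAT, eWAT and BAT (x axis); points are mice, and bars are mean and SD of 6. Atp5g1 lies at 2.23 to 2.72 RPKM in BAT, where Atp5b reaches 622 to 883 RPKM; on the fitted scale Atp5g2 and Atp5g3 in eWAT against BAT change direction with no scaling beyond the total count.

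The rows of the mitochondrial genome followed the same direction. All 12 were higher in BAT in both comparisons, with a median log2 fold change of 2.49 over iWAT and 3.24 over eWAT, beside 2.31 and 2.74 for the nuclear subunits. Unlike the nuclear subunits, these 12 rows are not all subunits, since they include rRNA rows and AK139402. None of the 12 overlapped in RPKM between BAT and a white depot. Of the rows as counted, the cytochrome b row (ENSMUSG00000064370, chrM:14144-15288, plus strand) was the most abundant in iWAT and BAT. It lay at 6874 to 11330 RPKM in iWAT (median 9179), 2993 to 5770 in eWAT (median 5056) and 30748 to 41621 in BAT (median 32299). It was higher in BAT by 2.50 ± 0.19 over iWAT (adjusted p = 1e-08) and by 3.44 ± 0.22 over eWAT (1.11e-09). The row of the large rRNA and ND1 together (ENSMUSG00000064341) had medians of 3931, 2552 and 15161 RPKM, and the ND2 row (ENSMUSG00000064345) had medians of 5271, 3083 and 15224 RPKM.

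The smallest change was that of COX1 (chrM:5325-6941, plus strand), the core subunit of complex IV that binds oxygen, at 6650 to 9918 RPKM in iWAT, 3828 to 6174 in eWAT and 15508 to 23384 in BAT. It was higher in BAT by 1.84 ± 0.19 over iWAT (adjusted p = 2.35e-07) and by 2.46 ± 0.20 over eWAT (1.53e-08). From position 6390 on, the COX1 row lies in the stretch described below, whose reads were nearly all counted on chromosome 1. Its RPKM and its rank by level therefore leave out most reads of that part. The largest change was that of the small rRNA (AK140219, chrM:70-957, plus strand), with 765 to 1113, 404 to 713 and 5352 to 14313 RPKM and log2 fold changes of 4.02 ± 0.22 and 4.71 ± 0.24. ND5 (chrM:11742-14143) and ND6 (chrM:11720-14070) lie on opposite strands and overlap almost entirely. Their rows gave medians of 3149 and 3182 RPKM in iWAT, 1807 and 1824 in eWAT and 10876 and 10925 in BAT, and the counts cannot be told apart. The ND4 row (AK142750) was higher in BAT by 2.35 ± 0.17 and 3.20 ± 0.23, and the row AK139402 (chrM:15763-16188) by 2.54 ± 0.17 and 3.57 ± 0.19.

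The reads on the mitochondrial rows, added over rows, came to 5.96 ± 0.917% of the library total that lies behind RPKM in iWAT, 3.46 ± 0.741% in eWAT and 19.9 ± 2.39% in BAT (mean ± SD, n = 6). Without the ND6 row, whose reads are also counted for ND5, this was 5.20%, 3.04% and 17.3%. These shares leave out reads that lie on chromosome 1. In mm9, chromosome 1 holds a nearly perfect copy of the mitochondrial genome from position 6390 to 11042 (chr1:24618374-24623027, minus strand), and 99.9% of its 4654 aligned columns are identical. It differs by 2 substitutions, A6393T and T9461C (the base of the mitochondrial genome first, then its position, then the base on chromosome 1), and 1 base that is on chromosome 1 alone. The stretch covers the end of COX1 (whose row ends at position 6941), COX2, ATP8, ATP6, COX3, ND3, ND4L and part of ND4. The second substitution is shown in 60 bases of each chromosome, at chrM:9431-9490 and chr1:24619927-24619986 (minus strand), with the differing base in capitals.

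Mitochondrial genome: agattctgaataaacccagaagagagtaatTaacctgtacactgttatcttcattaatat
Chromosome 1: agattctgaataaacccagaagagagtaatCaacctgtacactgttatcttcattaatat

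Nearly all reads of this stretch were counted on chromosome 1. Over 6 samples, the mitochondrial rows inside the stretch, without the ND3 row that lies within AK141672 (4 rows, of which 3 are listed as LOC100503984), held 9053 reads in iWAT and 2 rows of chromosome 1 that do not overlap (ND4L and LOC100503946) held 8755697, so that 0.103% lay on the mitochondrial chromosome. The share was 0.105% in eWAT and 0.124% in BAT. The mitochondrial rows ND3, LOC100503984 and AK141672, which lie inside the stretch, thus had medians of only 5.46, 26.9 and 6.90 RPKM in iWAT and 22.4, 108 and 27.4 in BAT, and their fitted differences rest on the few reads left there. The COX2 row on chromosome 1 had medians of 13565, 8470 and 48729 RPKM and was higher in BAT by 2.48 ± 0.20 over iWAT and by 3.19 ± 0.22 over eWAT (adjusted p = 2.22e-08 and 2.39e-09). The COX3 row there gave 2.45 ± 0.17 and 3.12 ± 0.18. The mitochondrial rows without ND6 and the 2 chromosome 1 rows together held reads that came to a mean of 10.1% of that library total in iWAT (7.93 to 12.0), 5.98% in eWAT (4.03 to 7.07) and 33.1% in BAT (29.7 to 40.2).

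**Figure D4:**
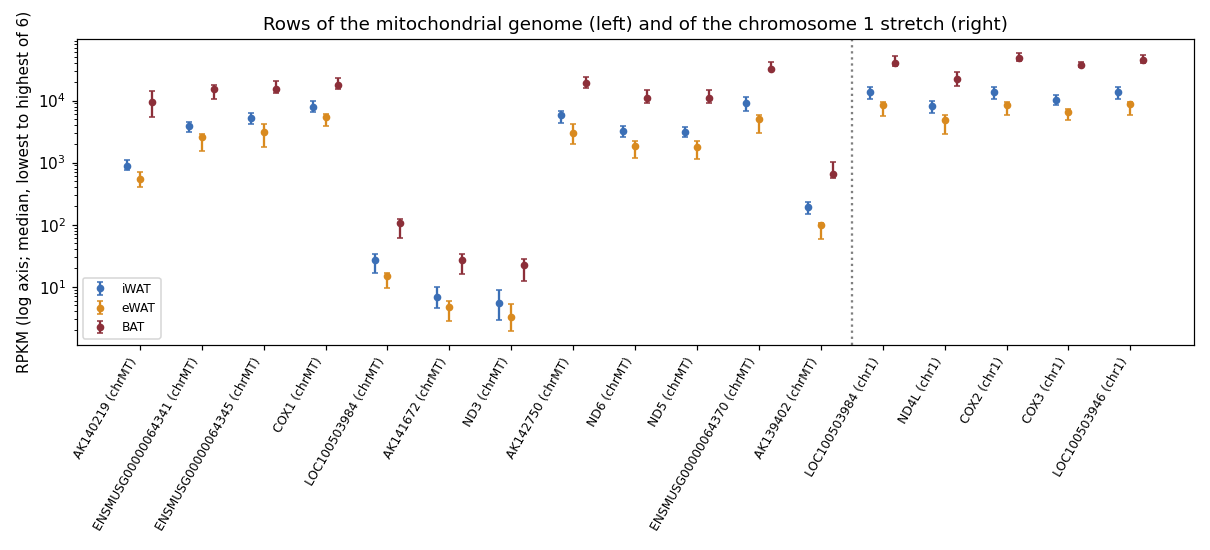
RPKM (y axis, log scale) of the rows of the mitochondrial genome in genome order and, right of the dotted line, of the rows in the copied stretch on chromosome 1; points are medians and bars run from the lowest to the highest of 6 mice. The mitochondrial rows LOC100503984, AK141672 and ND3 inside the stretch stay under 124 RPKM, while rows of the same genes on chromosome 1, such as COX2, reach 48729 RPKM (median) in BAT.

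Between the white depots, most members were higher in iWAT, by much less than between either depot and BAT. Of 96 members tested, 83 were called, where 68.5% of all features were. Among these, 79 were higher in iWAT, where 34.1% of all features were and 4 were higher in eWAT (Cox7a2l, Atp5g1, Atp5g2 and Atp5sl), where 34.5% of all features were. The median log2 fold change was 0.42, beside 0.00 over all features, and 4 members differed by at least 2-fold (Cox8b, Cox4i2, Ndufa4l2 and AK139402), all higher in iWAT. The mitochondrial rows differed more than the nuclear ones, but they are not 12 separate subunits. They include rRNA rows and AK139402, and ND5 and ND6 share their reads. All 12 were higher in iWAT with a median of 0.84 (0.62 to 1.05), although the call of ND3 (0.70 ± 0.27, adjusted p = 0.0333) was lost without iWAT mouse 2, 3 or 4 or eWAT mouse 1, 3, 4 or 5, and the nuclear subunits gave 65 of 81 with a median of 0.38. The RPKM values did not overlap for 10 of 12 mitochondrial rows and for 29 of 84 nuclear members, where 21.2% of all features lay higher in iWAT and 22.8% higher in eWAT without overlap.

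By complex, the medians of iWAT over eWAT were 0.42 in complex I (31 of 35 called), 0.27 in complex II (3 of 4), 0.43 in complex III (8 of 9), 0.42 in complex IV (13 of 17, with 1 in the other direction) and 0.27 in complex V (10 of 15, with 2 in the other direction). Within the lanes, 76 of 81 nuclear subunits were higher in iWAT in lane 1 and 77 of 81 in lane 2, and 12 of 12 mitochondrial rows in each. Atp5sl, which encodes no subunit, was higher in eWAT by 0.18 ± 0.07 (adjusted p = 0.0351), and this call was lost with the mouse as a block (0.18, adjusted p = 0.0705), under DESeq2 (0.16, adjusted p = 0.0522) and without iWAT mouse 1, 2, 3, 4 or 16 or eWAT mouse 1, 3 or 16.

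Marker genes of macrophages and adipocytes moved with these differences. The summed RPKM of 6 macrophage markers was 2601 to 4159 in eWAT, 459 to 892 in iWAT and 24.5 to 48.4 in BAT, and that of 6 adipocyte markers was 2388 to 7307, 10697 to 14953 and 5384 to 6634. None of the markers of either list was at 0. Among eWAT samples, mice 1 and 3 had the highest macrophage sums (4159 and 4100) and the lowest adipocyte sums (3252 and 2388). With these samples left out, 59 members were higher in iWAT and 3 in eWAT, and the median difference was 0.34. Calls over all features fell as well, from 13452 of 19624 to 11761 of 19543, with 5777 higher in iWAT and 5984 in eWAT. Cox8b was lowest in the same samples (3.28 and 3.15 RPKM) and highest in mice 2 and 4 (11.3 and 12.3), which had the highest adipocyte sums (7307 and 6745), and its difference was 1.64 without mice 1 and 3. The part of the cell mixture in these results was not tested.

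Markers of muscle and endothelium moved with particular isoforms. In BAT, the summed RPKM of 8 skeletal muscle markers ran from 1.67 to 118. Cox6a2 was at 0.0787 and 0.0428 RPKM in mice 2 and 17, where the muscle sum was 1.67 and 17.7, and at 1.11 to 2.45 RPKM in the other 4 mice, where it was 65.1 to 118. Cox7a1 and Cox8b stood at 397 and 1228 RPKM in mouse 2, the sample with the lowest muscle sum. They stood at 437 and 1415 RPKM in mouse 1, where the muscle sum was 92.5, and at 239 and 703 RPKM in mouse 5, where it was 118 and where most nuclear subunits were low. In iWAT, Cox4i2 and Ndufa4l2 were highest in mice 1 and 5 (5.02 and 5.30 RPKM, 17.2 and 17.8 RPKM), which also had the highest level of the endothelial gene Cdh5 (151 and 177 RPKM). Over the tissues, the summed RPKM of 4 endothelial markers was 99.5 to 280 in iWAT, 33.4 to 71.2 in eWAT and 68.7 to 99.6 in BAT. It did not overlap between the white depots, as for Cox4i2 and Ndufa4l2, and its order was that of both genes. For Cox6a2, Cox7a1, Cox8b, Cox4i2 and Ndufa4l2, the part of these cells in the result was not tested.

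**Figure D5:**
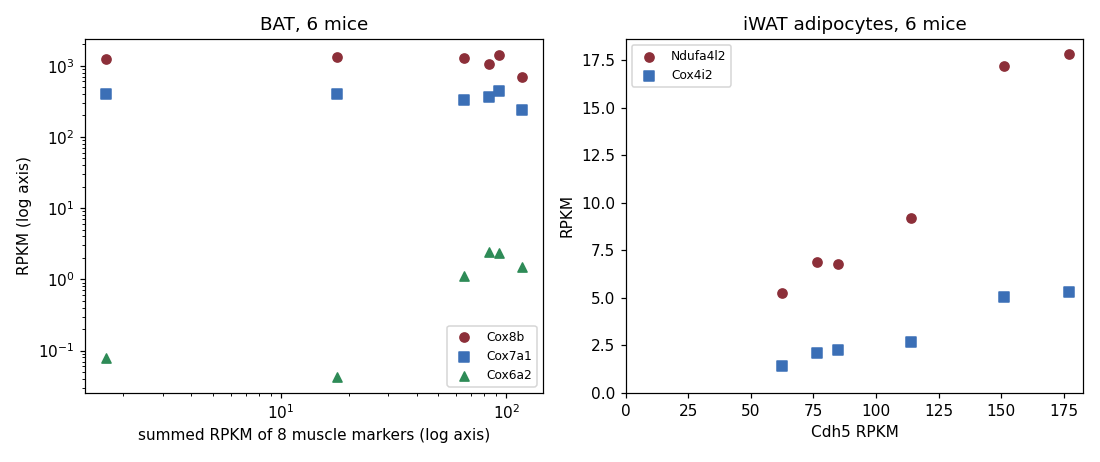
Left, RPKM of Cox8b, Cox7a1 and Cox6a2 (y axis, log scale) against the summed RPKM of 8 skeletal muscle markers (x axis, log scale) in the 6 BAT samples; right, RPKM of Ndufa4l2 and Cox4i2 (y axis) against RPKM of Cdh5 (x axis) in the 6 iWAT samples. Cox6a2 is at most 0.0787 RPKM in the samples with a muscle sum of 1.67 and 17.7, where Cox7a1 is at 397 and 400, and both genes on the right are highest in the samples with Cdh5 at 151 and 177.

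Replicates differed little for most members. The median coefficient of variation of the nuclear members was 9.81% in iWAT, 11.1% in eWAT and 14.9% in BAT, and that of the mitochondrial rows was 15.8%, 22.8% and 18.9%. Mouse 5 was low for the nuclear subunits in iWAT, with 4 of 80 above the mean of the tissue and a median deviation of -0.24 (log2), and in BAT, with 5 of 80 and -0.35. Its mitochondrial rows deviated by -0.34 and -0.01. In eWAT, 44 of 78 subunits of mouse 5 lay above the mean, and mouse 3 was low instead, with 3 of 78 above the mean, a median deviation of -0.15 and a deviation of -0.60 for its mitochondrial rows. In BAT the subunits with shorter rows deviated by -0.47 and those with longer rows by -0.24 in this sample. Without mouse 5, 82 members were higher in iWAT than in eWAT and 4 higher in eWAT. Over all features these numbers were 6571 and 6706 of 19574.

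Genes outside the symbol rule that serve the same pathway were also mostly higher in BAT. Of 50 assembly factor symbols, 34 had a row. Of these, 32 were higher in BAT than in iWAT and 34 higher than in eWAT, where 37.2% and 41.4% of all features were, with medians of 1.29 and 1.62, beside 2.31 and 2.74 for the nuclear subunits. The largest change was that of Lyrm7, a complex III assembly factor, with 0.473 ± 0.0790, 0.300 ± 0.0828 and 2.98 ± 0.303 RPKM (mean ± SD of the 6 mice, in the order iWAT, eWAT, BAT, as in the sentences that follow) and log2 fold changes of 3.26 ± 0.13 and 3.91 ± 0.16 for BAT over the white depots. Uqcc (complex III), Ndufaf4 (complex I), Cox17 and Fam36a (complex IV) and Atpaf2 and Tmem70 (complex V) were higher in BAT by 2.18, 2.62, 2.66, 1.95, 1.61 and 1.79 over iWAT. Between the white depots, 24 factors were higher in iWAT (34.1% of all features) and 1 in eWAT (34.5% of all features), which was Sco2 (named after its values were seen, by 0.24 on the log2 scale).

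Of 11 partners and small proteins, 10 could be tested, and 9 were higher in BAT (37.2% and 41.4% of all features) and 1 lower (38.1% and 41.1% of all features) in both comparisons. Chchd10, a protein of the intermembrane space, had the largest change, with 31.6 ± 5.94, 18.7 ± 6.79 and 425 ± 41.2 RPKM and log2 fold changes of 4.36 ± 0.15 and 5.10 ± 0.24 for BAT over iWAT and eWAT. The electron transfer flavoprotein genes Etfa and Etfb, which pass electrons from fatty acid oxidation to the chain through Etfdh, were higher in BAT by 2.50 and 2.00 over iWAT and by 3.42 and 2.99 over eWAT, and Etfdh by 3.02 and 3.77. Higd2a, a small protein of complex IV, was higher by 0.96 and 1.28, of which the first was no longer called with no scaling beyond the total count (0.10, adjusted p = 0.431). The gene that was lower in BAT, named after its values were seen, was Atpif1, which encodes the inhibitory factor of complex V. It had 7.02 ± 0.990, 21.1 ± 3.33 and 1.80 ± 0.223 RPKM, and it was higher in iWAT and eWAT than in BAT by 1.35 ± 0.10 and 2.97 ± 0.11, and higher in eWAT than in iWAT by 1.58 ± 0.11.

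Of the genes that copy and transcribe mitochondrial DNA, 13 of 16 symbols had a row, and 12 were higher in BAT in each comparison, where 37.2% and 41.4% of all features were (medians 1.15 and 1.52). The exception, named after its values were seen, was Polg2, an accessory subunit of the mitochondrial DNA polymerase, which was not called against iWAT and was higher in eWAT than in BAT by 0.36 ± 0.13. Tfam, which packages and activates mitochondrial DNA, had 4.01 ± 0.327, 3.14 ± 0.262 and 5.32 ± 0.650 RPKM and was higher in BAT by 1.02 ± 0.09 and 1.35 ± 0.09, of which the first was no longer called with no scaling beyond the total count (0.16, adjusted p = 0.153). Tfb2m, needed to start transcription, was higher by 1.64 ± 0.09 and 2.18 ± 0.09. Top1mt was higher by 1.41 and 2.06, Mterf by 1.49 and 1.60, Mterfd2 by 1.46 and 1.79, and Mterfd3 by 1.15 and 2.78. Mterfd1 was higher in BAT by 0.62 over iWAT, which turned to 0.23 in the other direction with no scaling beyond the total count. Lrpprc, which stabilises mitochondrial mRNA, had 3.16 ± 0.324, 3.22 ± 0.195 and 8.24 ± 1.74 RPKM and was higher in BAT by 1.99 ± 0.13 and 1.94 ± 0.12.

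Of 12 regulators of respiratory genes with a row, 7 were higher in BAT in each comparison (37.2% and 41.4% of all features), and 4 were higher in iWAT and 5 in eWAT (38.1% and 41.1% of all features). The nuclear receptor gene Ppara had 1.14 ± 0.177, 0.399 ± 0.168 and 42.7 ± 8.82 RPKM and was higher in BAT by 5.83 ± 0.16 and 7.33 ± 0.31. The coactivator gene Ppargc1a had 0.821 ± 0.162, 0.257 ± 0.106 and 6.62 ± 1.27 RPKM and was higher in BAT by 3.62 ± 0.16 and 5.30 ± 0.23. Its relative Ppargc1b had 0.862 ± 0.142, 0.820 ± 0.0983 and 13.7 ± 2.84 RPKM and was higher in BAT by 4.59 ± 0.15 and 4.64 ± 0.14. Between the white depots Ppargc1a was higher in iWAT by 1.70 ± 0.24 (adjusted p = 4.6e-05), and Ppargc1b gave 0.08 ± 0.12 without passing the test. Esrrb, an orphan nuclear receptor gene, was at most 0.522 RPKM in BAT, 0.0272 RPKM in iWAT and 0.00625 RPKM in eWAT. Gabpa, a subunit of the factor GABP, was higher in BAT by 1.19 and 1.27. Yy1 had 18.7 ± 1.59, 18.5 ± 0.719 and 9.34 ± 1.08 RPKM and was lower in BAT by 0.39 ± 0.07 and 0.40 ± 0.08, of which the first call was lost with the rows of a symbol summed (0.11, adjusted p = 0.141). The other regulators higher in both white depots, named after their values were seen, were Pprc1, Gabpb1 and Nrip1 (a corepressor gene, 2.76 and 2.20), and Nrf1 was higher in eWAT than in BAT by 0.34.

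Genes of the mitochondrial ribosome, which makes the mitochondrially encoded subunits, were higher in BAT in 74 of 76 cases over iWAT and in 76 of 76 over eWAT, beside 37.2% and 41.4% of all features, with medians of 1.11 and 1.31. Of the listed genes, Mrps36 changed most, by 3.25 ± 0.11 and 2.96 ± 0.09. Whether its product belongs to the ribosome was not tested. Mrpl34 changed by 2.34 and 2.45, Mrpl47 by 2.17 and 2.28, Mrps35 by 1.86 and 2.33, and Mrpl12 by 1.63 and 2.03. Mrps6 was higher in iWAT than in BAT by 0.78 ± 0.11 and higher in BAT than in eWAT by 0.37 ± 0.16, which turned to 0.54 in the other direction with no scaling beyond the total count and was lost with the mouse as a block (0.28, adjusted p = 0.189) and without eWAT mouse 1, 3 or 16 or BAT mouse 1, 16, 17 or 18.

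Of 12 genes taken as a measure of mitochondrial mass, 11 were higher in BAT than in iWAT (37.2% of all features) and 10 higher than in eWAT (41.4% of all features), with medians of 0.95 and 1.04. Citrate synthase (Cs) had 58.0 ± 8.36, 34.0 ± 5.55 and 201 ± 12.9 RPKM and was higher by 2.40 ± 0.12 and 3.16 ± 0.13. The chaperone gene Hspa9 was higher by 1.98 and 2.26, the inner membrane gene Immt by 2.00 and 2.49, and the outer membrane channel gene Vdac1 by 1.02 and 1.01, which was no longer called in either comparison with no scaling beyond the total count (0.17 and 0.10). Tomm20, named after its values were seen, was higher in eWAT than in BAT by 0.25.

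Promoters were read for 70 nuclear members from RefSeq (GRCm38.p6), in windows from 250 bases before to 50 bases after a start site. The letters GCGCATGC, the core of the element bound by NRF1, were found on either strand in 11 of 76 windows (14.5%), against 2.71% of all 32851 windows. The GABP letters CCGGAAGT were in 5 (6.58% against 3.89%) and the estrogen-related receptor letters TCAAGGTCA in 2 (2.63% against 0.423%). AGGTCA, which lies within the latter, was in 16 (21.1% against 16.3%). Base composition was not matched, so these shares are a description of the letters and not of binding. The window of Cycs upstream of its start (chr6:50566570-50566819, minus strand, GRCm38.p6) is shown as a member with the NRF1 letters, in capitals as the reverse complement and 60 bases before the start.

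Cycs promoter: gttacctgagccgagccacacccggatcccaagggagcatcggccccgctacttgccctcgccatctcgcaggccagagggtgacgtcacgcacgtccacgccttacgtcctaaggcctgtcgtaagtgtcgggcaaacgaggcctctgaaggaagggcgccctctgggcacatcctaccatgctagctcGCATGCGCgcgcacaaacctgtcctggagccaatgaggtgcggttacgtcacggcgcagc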

How the data were processed

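RNA was sequenced from the adipocyte fractions of iWAT and eWAT and from whole BAT, with 6 libraries each. Per the submitters' processing notes, reads were trimmed with cutadapt 1.16 and aligned to mm9 with HISAT2 2.1.0. The authors deposited, for 53445 transcript rows per sample, read counts on each row and RPKM values made from them. Overlapping rows of opposite strands, such as ND5 and ND6, share their reads. The counts deposited by the authors were used for all fits, and the deposited RPKM for levels and isoform shares. Mitochondrial shares are reads divided by the library total that counts, row lengths and RPKM imply.

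Rows were reduced to 52094 features, 1 per symbol, keeping the most abundant one. Samples were grouped by tissue from their titles and source labels. Each comparison was fitted on its 12 samples with edgeR 4.0.16 (R 4.3.3), by the quasi-likelihood test with TMM scaling, on features with a mean count of at least 10, and p-values were adjusted over all features tested by Benjamini-Hochberg with a threshold of 0.05. Isoform shares were compared by two-sided exact permutation tests over samples, with 18 p-values adjusted together. The fitting steps were tested on simulated data first. Other steps used Python 3.11.15 with pandas 2.3.3, numpy 2.4.6, scipy 1.17.1 and biopython 1.88, and plots matplotlib 3.10.9.

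The members and lists were chosen with earlier results of these data known. The genes named are the isoform families, the mitochondrial rows, the highest and lowest genes of each complex by RPKM and by called change, members that were untested or went against the majority, and, of each other list, the 3 most abundant and the 3 with the largest called change against BAT. The values of Uqcrc1, Uqcrc2, Cox5a, Cox7c, Atp5c1 and Atp5j, and the genes stated as such in the text, were added outside this rule after their values were seen.

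Mouse numbers in the titles were taken to mark the same animal. Over features, the mean correlation of deviations from the group means was -0.0114 for same-numbered iWAT and eWAT samples (0.0030 for different numbers), -0.0108 for iWAT and BAT and 0.0154 for eWAT and BAT. The main fits had no block, and fits with the mouse as a block are given where they changed a call.

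Alternatives were no scaling beyond the total count, DESeq2 1.42.0, no filter on low counts, scaling by nuclear rows, rows of a symbol summed, all 18 samples in 1 fit, the mouse as a block, lane as a covariate and leaving out each sample. The total count is the sum over the rows in the fit, where reads on overlapping rows count more than once. The alternatives with near-identical copies summed, with scaling that left out the mitochondrial rows and their copies on chromosome 1, without eWAT mice 1 and 3 and without mouse 5 were chosen after seeing the data. Intronless copies of coding sequences and the copied mitochondrial stretch were located in the mm9 genome. A treatment label that names chow was set aside because titles and protocol give HFD.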

Additional observations from a re-analysis of the deposited data

Results flagged for a closer look

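Over 129 groups of 6 samples, 1 for each named member and tissue with reads, a sample was marked where its gap to the nearest other sample was large for the range of the group (Dixon's test at 95%). Chance alone marks about 1 in 20 groups, and 11 were marked. Of these, 9 were low values of mouse 5. In iWAT, mouse 5 had 28.8 RPKM for Ndufv1 (the other 5 samples lay between 35.5 and 39.4), 38.9 for Cyc1 (48.5 to 53.1), 23.4 for Uqcrq (28.6 to 31.5), 45.8 for Cox7a2 (52.1 to 54.9), 186 for Cox8a (228 to 248), 180.4 for Atp5b (219 to 241) and 74.7 for Atp5g3 (95.03 to 101). In BAT, mouse 5 had 115 RPKM for Cox7b (145 to 162) and 307 for Cox8a (478 to 565). The other marks were high values of mouse 16 in BAT, with 20566 RPKM for the ND2 row ENSMUSG00000064345 (13322 to 15828) and 41621 for the cytochrome b row ENSMUSG00000064370 (30748 to 33806).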

How the results depend on the processing

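The counts of members called in each direction changed by no more than 1.5 times, except as follows. At a threshold of 2-fold, 4 members were higher in iWAT and 0 higher in eWAT, and 1 was higher in iWAT than in BAT. With no scaling beyond the total count, 5 members were higher in iWAT than in BAT (Atp5g1, Atp5g3, Cox4i2, Cox6a2 and Ndufa4l2) and 3 higher in eWAT than in BAT (Atp5g1, Atp5g3 and Cox7a2l). Under that setting, BAT over eWAT reversed for Cox7a2l (to 0.34 in favour of eWAT), Atp5g2 (0.18), Atp5g3 (0.51) and Mrps6 (0.54), and BAT over iWAT reversed for Mterfd1 (0.23 in favour of iWAT), as the median of all features shifted. With the mouse as a block (replicate block), 1 member was higher in iWAT than in BAT. The block otherwise ended the calls given in the report and that of Mrpl47 in iWAT over eWAT (0.15, adjusted p = 0.0511). Leaving out 1 sample at a time gave 72 to 83 members higher in iWAT and 3 to 4 higher in eWAT, and left the numbers against BAT as they were. The difference in the Cox7a1 share between iWAT and eWAT ran from -0.131 to 0.635 percentage points over these settings, and reversed without iWAT mouse 2. Without ND6, reads on the mitochondrial rows of protein-coding genes came to 16.4% of the library total behind RPKM in BAT. This includes the row of the large rRNA and ND1 together, and leaves out reads counted on chromosome 1. Of the values for single genes, 80 fell below the threshold, 13 passed it and 5 reversed, against 5305 that kept their side and direction, and apart from the scaling shift the cause was not tested. RPKM does not correct for the large mitochondrial share in BAT, and counts without strand cannot separate overlapping genes.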
